A study of Mus musculus with 3 samples.

Results

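The genes described here are the replication-dependent histone genes of the mouse, read in cycling and resting cells of KP1 tumors. They were chosen by symbol alone, as the current names of the clustered H1, H2A, H2B, H3 and H4 genes, a rule that uses no measured value but was set with earlier results of these data known. Of 33696 genes in the deposited matrices, 66 carried such a symbol: 5 H1 genes, 18 H2A genes, 18 H2B genes, 12 H3 genes and 13 H4 genes. KP1 is a mouse small cell lung cancer (SCLC) line with mutant Rb and p53, and the cells were grown under the skin of wild-type B6129SF1/J mice, a first-generation hybrid strain. Live CD45+ cells were sorted from the tumors on day 19 and profiled by droplet-based single-cell RNA sequencing, which counts unique molecular identifiers (UMIs) at the 3′ ends of transcripts. The design asks how the immune infiltrate differed between a single IL-10 cytokine and a fusion of it, given alone or with a checkpoint antibody. The fusion joins the IL-10 cytokine to a non-agonist IL-2 variant. The labels call the cells mouse T cells, although the sort was on CD45.

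Each of the 3 groups was 1 library, and how many mice stood behind a library is not given in the sources used here. The mono-IL-10 group received a monomeric IL-10 mutein. The IL-10/2-Trikine group received a fusion of it with an IL-2 variant that recruits the receptor chain IL-2Rβ. In the paper this IL-2 variant is a mutant that does not bind the common gamma chain and is not an agonist. The last group received the fusion with the anti-PD-1 antibody RMP1-14 and is called the combination. The titles and treatment labels give the antibody to the last group alone, while the protocol text of all 3 can be read as giving it to every group; the labels were followed here. Cytokine doses of 3 µg were given on alternate days, starting on day 7 and ending on day 19, and the antibody was given at 200 µg on days 7, 11, 15 and 19. All 3 groups therefore carried the same tumor and received a cytokine with an IL-10 arm, and no untreated library was analysed here. With 1 library per group no test between treatments was possible, and treatment, mice and library preparation cannot be told apart. The intervals given with each value are 95% intervals of the counts, and they cover counting error only.

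Core histones of the H2A, H2B, H3 and H4 families form the nucleosome, and the linker histone H1 binds the DNA that enters and leaves it. The replication-dependent genes sit in clusters, lack introns, and supply new histones while DNA is copied in S phase. Their mRNAs normally end in a conserved stem-loop that is bound by the protein Slbp, and not in the poly(A) tail that 3′ end assays prime on. Some of these genes can also be read through to a downstream poly(A) site, a form known from cells that have left the cell cycle.

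The stem-loop is shown first because it is the feature that sets these mRNAs apart. A search of the annotated GENCODE M21 transcripts for the histone form of the loop found it in 43 of the 66 genes and in 42 of 21835 other protein-coding genes (0.19%). The 4 bases of the loop are in capitals, and the stems differ at few positions.
Stem-loop of 26 genes, H1f2, H1f4 and H2ac24 among them: ggcucuUUUCagagcc
Stem-loop of 7 genes, H4c4 and H4c16 among them: ggcccuUUUCagggcc
Stem-loop of 5 genes, H3c3 among them: ggcucuUUUAagagcc
Stem-loop of 2 genes, H4c9 and H4c14: ggcccuUUUUagggcc
What followed the stem-loop differed far more than the stem-loop itself. The annotated transcript went on for 3 bases after it in H2ac24, for 11 bases in H2ac4 and for 74 bases in H3c3. It went on for 840 bases in H1f2, 1153 bases in H1f4, 1643 bases in H2ac25, 2445 bases in H4c16 and 4884 bases in H1f3. No match was found in the annotated transcripts of the other genes, H1f5 and H1f1 among them, which says only that these letters were not in those models. Several of these models were short, with 381 bases in H2bc13, H2bc15 and H2bc18 and 312 bases in H4c12. Whether they reach the end of the mRNA was not tested.

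The promoters are shown for 4 genes whose levels come up below, the most abundant H1 gene, an H2B gene with an octamer, an H1 gene with a weak ratio, and the H4 gene that went against its family between libraries. RefSeq gave a promoter for 57 of the 66 genes on build GRCm38.p6, which was used for sequence only. The 120 bases before each transcription start are printed with matches on either strand in capitals, for the octamer ATTTGCAT, the AC box AAACACA of H1 genes, the CCAAT box and the TATA box TATAAA.
H1f5, chr13:21780626-21780745, minus strand: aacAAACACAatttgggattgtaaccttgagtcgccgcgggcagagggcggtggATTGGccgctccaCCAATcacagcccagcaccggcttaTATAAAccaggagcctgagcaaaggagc
H2bc18, chr3:96269580-96269699, plus strand: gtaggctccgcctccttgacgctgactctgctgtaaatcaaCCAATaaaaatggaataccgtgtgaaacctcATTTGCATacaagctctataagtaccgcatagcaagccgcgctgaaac
H1f2, chr13:23738687-23738806, plus strand: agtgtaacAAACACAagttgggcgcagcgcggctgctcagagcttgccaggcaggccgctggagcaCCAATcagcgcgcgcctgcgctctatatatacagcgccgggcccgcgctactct
H4c9, chr13:22041363-22041482, minus strand: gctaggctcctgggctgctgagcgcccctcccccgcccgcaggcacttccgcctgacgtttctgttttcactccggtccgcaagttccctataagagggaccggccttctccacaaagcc
Over the 250 bases before the start, the octamer was present in 12 of the 57 genes (21.1%) against 1.60% of 32851 mouse promoters. All 12 were H2A or H2B genes, 6 of each, and none was an H1, H3 or H4 gene. The H2B gene H2bc6 was counted by a window without the octamer, although another of its windows held it. The windows of H2ac8 and H2bc8, of H2ac12 and H2bc12 and of H2ac1 and H2bc1 overlapped on opposite strands. A single match could thus count for both genes of a pair, and the 12 are not 12 separate stretches. The AC box was present in 4 of 5 H1 genes and in 8 genes in all (14.0%, against 6.25% of all promoters). CCAAT was present in 82.5% of the genes against 33.8% of all promoters, and TATAAA in 49.1% against 12.4%. These matches describe the letters in the window and are not binding sites measured here.

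The matrices held 158570946 UMIs (mono-IL-10), 197176873 UMIs (IL-10/2-Trikine) and 175794959 UMIs (combination). After filtering, 22235, 22707 and 26967 cells remained, more than the study states for each library under the same limits, so the cell sets differ, with a median of 4774, 5562 and 4273 UMIs. Between 137 and 180 cell barcodes were shared by a pair of libraries. Cells were gated on marker UMIs as CD8 T cells, CD4 T cells, Foxp3-positive T cells, NK cells, C1q-positive macrophages and tumor cells, with S100a8 and S100a9 positive cells (the neutrophil gate) as a reference, of which only the resting cells were used. The 3 T cell gates together held 29.0%, 36.6% and 33.1% of the cells, and 11066 to 12462 cells per library fell in no gate. T cell receptor and T cell signaling genes left out of the gates summed to 3326 to 4433 CPM (UMIs per 1000000 UMIs of the gate) in the T cell gates to 818 to 834 CPM in the NK gate and to 36 to 58.5 CPM in the macrophage gate. Macrophage genes left out of the gates, Csf1r, Adgre1 and Fcgr1 among them, summed to 590 to 623 CPM in the neutrophil gate and 1139 to 1277 CPM in the macrophage gate, and their part in the reference values was not tested. The tumor gate asked for cells without a UMI of Ptprc, which encodes CD45, and held 191, 499 and 312 cells that had nonetheless come through a CD45+ sort. A cell was called cycling when at least 0.5% of its UMIs came from 90 S and G2/M phase genes, none of them a histone, and resting below 0.2%. Between 3 and 220 cells per library in each of the 6 gates other than the neutrophil gate lay near the upper limit, from 0.4 to 0.6%.

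Summed over all 66 genes, histone mRNA was many times higher in cycling than in resting cells of every kind. In CD8 T cells the summed level was 5607, 4484 and 4534 CPM in cycling cells of the mono-IL-10, IL-10/2-Trikine and combination libraries, and 495, 386 and 405 CPM in resting cells. The fold was 11.4 in CD8 cells, with a mean log2 ratio of 3.51 (SD 0.028 over the 3 libraries), and the cycling and resting values did not overlap. It was 11.0-fold in CD4 cells (log2 3.46, SD 0.078) and 10.5-fold in Foxp3-positive cells (log2 3.39, SD 0.092). NK cells showed 7.88-fold (log2 2.98, SD 0.059), on 18, 162 and 87 cycling cells. Macrophages showed 10.5-fold (log2 3.39, SD 0.10). The tumor cells showed 5.87-fold (log2 2.55, SD 0.22), where only 13, 32 and 19 resting cells were found. The ratios were taken within each library, and the SD is a spread over libraries of different treatment and not a replicate error. No test was made of them, since the cells were divided by their own RNA. The median gene moved far less, by a log2 ratio of -0.15 in CD8 cells, among genes with at least 20 UMIs in every pair.

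**Figure D1:**
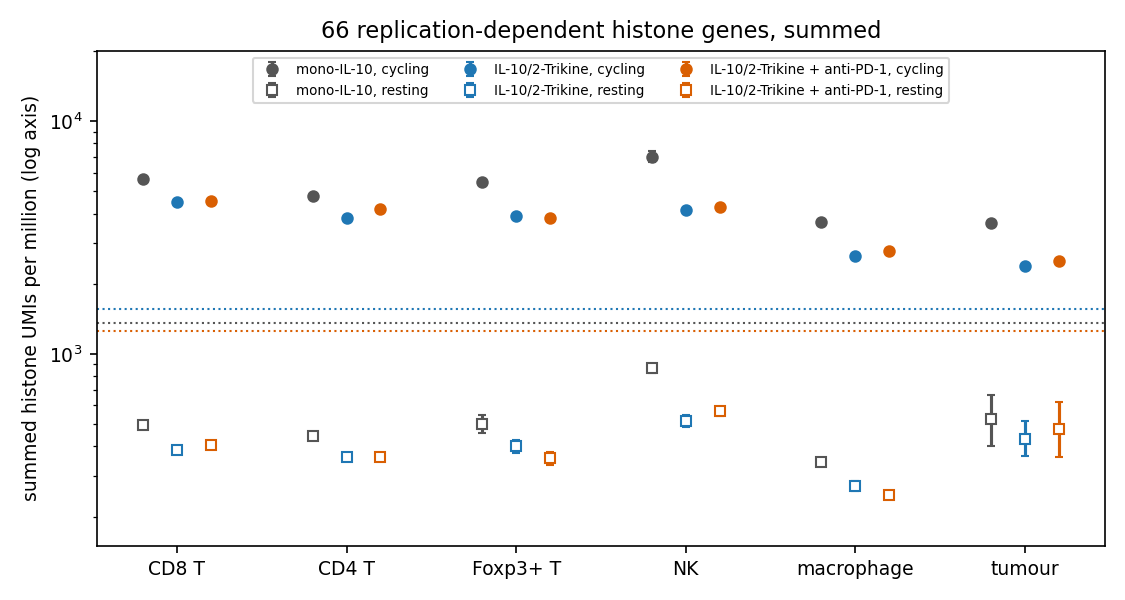
Summed level of the 66 replication-dependent histone genes in CPM (log axis) by cell gate, with filled circles for cycling cells, open squares for resting cells, colors for the 3 libraries and bars for 95% counting intervals. Cycling cells lay between 2385 and 7024 CPM and resting cells between 249 and 866 CPM, and the dotted lines mark the empty droplets of each library at 1357, 1560 and 1251 CPM.

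Among cycling cells, the lymphocyte gates stood above macrophages and tumor cells in each library. The order in the mono-IL-10 library ran from NK cells (7024 CPM, 18 cells) through CD8, Foxp3-positive and CD4 cells (5607, 5478 and 4753 CPM) to macrophages (3692 CPM) and tumor cells (3661 CPM). Macrophages and tumor cells in that library did not differ beyond their counting intervals, 3644 to 3741 CPM and 3573 to 3749 CPM. In the IL-10/2-Trikine library the CD8 cells were highest at 4484 CPM, and CD4 and Foxp3-positive cells were close to each other at 3814 and 3904 CPM. Among resting lymphocytes the NK cells were highest in every library, at 866, 517 and 566 CPM.

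Cycling cells were also larger libraries than resting cells, with a median of 10686 to 11694 UMIs per CD8 cell against 3405 to 4055. When every cell was thinned to 1000 UMIs, 79.8%, 82.9% and 83.6% of cycling CD8 cells held a histone UMI against 36.7%, 27.4% and 28.8% of resting CD8 cells. Without thinning the shares were 98.1%, 98.7% and 98.2% against 76.7%, 62.2% and 63.6%. Resting cells of the neutrophil gate, which had a median of 2259, 1566 and 2005 UMIs, held one in 21.7%, 30.2% and 29.8% of thinned cells. Cells with under 1000 UMIs were left out of this, 6, 1 and 14 cycling CD8 cells, 9, 14 and 24 resting CD8 cells and 6, 29 and 1 neutrophils. Resting CD8 cells of the IL-10/2-Trikine and combination libraries thus lay at or below that reference. The reference may hold histone RNA of its own, and how much of either share is expression was not tested. Empty droplets with 10 to under 100 UMIs carried 1357, 1560 and 1251 CPM, above every resting gate, and the part of such free RNA in the resting levels was not tested.

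Counting over single genes gave the same picture. In CD8 cells 52 of the 66 genes had at least 20 UMIs in the pair in each library, and 47 of them were at least 2-fold higher in cycling cells in every library, against 7.26% of all 11933 genes that passed the same filter. Genes of low level could pass this filter through the cycling cells alone, so the count does not speak for the 14 that did not pass. Without any filter, 59 of the 66 were higher in cycling CD8 cells in all 3 libraries, against 21.6% of all genes with a UMI in the pair. The exceptions were H2ac1, H2ac19, H2ac25, H2bc1, H2bc21, H2bc23 and H3c14, of which H2ac19 had 0 UMIs in all kept cells, H2bc23 had 1 and H2bc1 had 9.

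In the other cell types the count of genes that could be read was smaller, and the share past the limit was lowest in tumor cells. In CD4 cells 33 of 37 passed the 2-fold limit (6.81% of all genes), in Foxp3-positive cells 23 of 24 (7.33%), and in macrophages 30 of 32 (6.77%). In NK cells 10 of 12 passed (4.66% of all genes) and in tumor cells 16 of 22 (5.34%). Of those 22 genes 7 had no UMI in any resting tumor cell, so they passed through the cycling cells alone and their direction was fixed by the filter. In some or all libraries 14 of the 22 had no resting UMI. The same was so for 6 of 52 genes in CD8 cells, 3 of 37 in CD4 cells, 5 of 24 in Foxp3-positive cells and 2 of 32 in macrophages. In such a library the direction was fixed by the filter as well. One gene, H2bc4 in tumor cells, was at least 2-fold lower in cycling cells in every library, on the few resting tumor cells. Without a filter, the genes higher in every library numbered 57 in CD4 cells (19.6% of all genes), 57 in Foxp3-positive cells (18.6%), 59 in macrophages (29.4%), 40 in NK cells (16.3%) and 44 in tumor cells (24.8%).

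A small set of genes supplied most of the histone UMIs. H1f5 alone held 31.6% of the 1036058 histone UMIs in kept cells, the top 4 genes held 67.2% and the top 12 held 88.1%, while 53 genes held under 1% each. UMIs count captured 3′ ends and were not scaled by length, and poly(A) tails were not measured, so this order is that of captured RNA. Reads of near-identical copies are a further limit, since 52 of the 66 genes shared more than 10% of their 91-base windows with another gene and 26 shared more than 50%. In H2ac19 every window was shared, and in H2ac24, H2ac22 and H2ac4 it was 92.3%, 83.8% and 53.5%, so their levels are uncertain.

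The linker histones led in every cycling gate. H1f5 stood at 1900, 1702 and 1650 CPM in cycling CD8 cells and at 37.4, 39.5 and 36.3 CPM in resting ones, a mean log2 ratio of 5.53. H1f4 was at 978, 858 and 752 CPM against 174, 138 and 130 CPM, a log2 ratio of 2.56. H1f3 and H1f1 reached 222, 141 and 171 CPM and 140, 120 and 135 CPM in cycling cells, with log2 ratios of 3.52 and 5.25. H1f2 behaved differently from the other linker genes, with 301, 206 and 207 CPM against 120, 91.2 and 102 CPM and a log2 ratio of 1.17. Its level in neutrophils was 107, 154 and 128 CPM, near or above that of resting CD8 cells. The neutrophil gate may hold histone RNA of its own, and whether the resting CD8 value is above background was not tested. H1f4, by contrast, was at 48.2, 58.3 and 23.7 CPM in neutrophils, below each resting CD8 value, and reached 379, 197 and 166 CPM in resting NK cells. In the empty droplets H1f5 exceeded H1f4 in every library, at 349 against 308, 526 against 362 and 333 against 304 CPM, while in resting CD8 cells it was below H1f4.

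Among the core histones, the H4 gene H4c4 and the H3 gene H3c3 were the most abundant of their families. H4c4 was at 610, 387 and 455 CPM in cycling CD8 cells against 45.4, 30.9 and 43.8 CPM in resting ones. H3c3 was at 238, 170 and 189 CPM against 1.51, 1.46 and 1.14 CPM, and its mean log2 ratio of 7.18 (SD 0.27) was the highest of the 46 genes with a resting UMI in every library. The next highest ratios all belonged to H2A genes, H2ac4 at 6.85 (SD 0.76), H2ac24 at 6.32 (SD 0.88), H2ac22 at 6.29 (SD 0.74) and H2ac8 at 5.57 (SD 0.15). The resting counts behind the steepest ratios were small, with 5, 6 and 6 resting UMIs of H2ac4 and 5, 2 and 1 of H2ac22, whose interval in the combination ran from 4.64 to 12.5. H2ac8 and H2ac20, the leading H2A genes, reached 261, 221 and 234 CPM and 111, 80.4 and 82.8 CPM in cycling cells. The H2B gene H2bc18, whose promoter carries the octamer shown above, was at 78.9, 51.7 and 58.8 CPM against 6.30, 4 and 4.58 CPM. A further 6 genes, H3c2, H3c4, H4c6, H4c12, H2ac7 and H2ac10, had no resting UMI in at least 1 library and were not ranked.

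**Figure D2:**
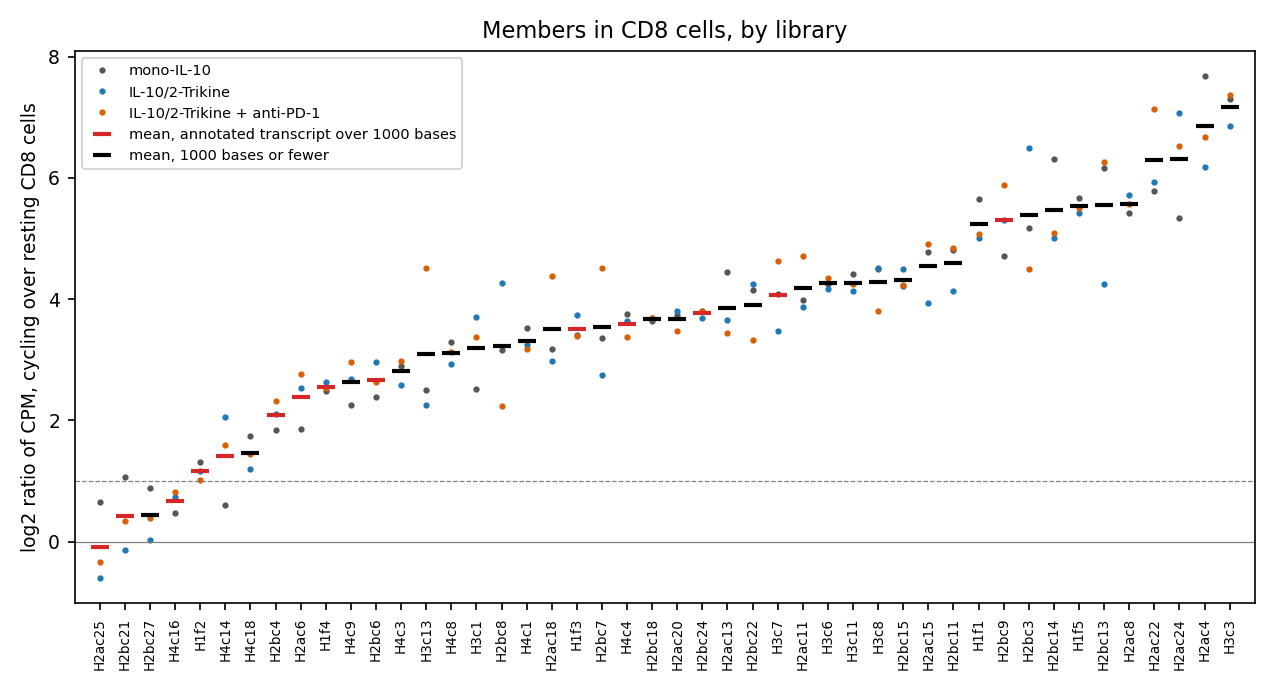
Log2 ratio of CPM in cycling over resting CD8 T cells for the 46 genes that passed the filter with a resting UMI in every library, with a dot per library and a dash at the mean, red where the annotated transcript is longer than 1000 bases and black otherwise. The dashed line marks the 2-fold limit, H3c3 stood highest at 7.18, and H2ac25, H2bc21, H2bc27 and H4c16 stood lowest.

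At the other end, a few genes were nearly flat between resting and cycling CD8 cells. H2ac25 was at 8.24, 5.48 and 6.89 CPM in cycling cells and 5.23, 8.29 and 8.67 CPM in resting cells, a mean log2 ratio of -0.09 (SD 0.66) with the libraries on both sides of 0. H2bc21 and H2bc27 had log2 ratios of 0.43 and 0.44, and each had libraries near or below 0. H4c16 was at 5.39, 4.71 and 4.77 CPM against 3.91, 2.83 and 2.70 CPM, a log2 ratio of 0.67. In the empty droplets H4c16 was at 5.70, 3.83 and 2.78 CPM and H2bc27 at 7.77, 6.70 and 8.56 CPM, so H2bc27 in cycling CD8 cells was near the empty droplets in every library, while H4c16 was near them in the mono-IL-10 library and above them in the others. The H2B gene H2bc4, at 38.3, 29.3 and 32.9 CPM in cycling and 10.6, 6.83 and 6.62 CPM in resting CD8 cells, was higher in neutrophils (53.5, 58.3 and 85.4 CPM) than in either.

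Genes with a long annotated transcript had weaker ratios on the median. The 15 tested genes with a transcript longer than 1000 bases had a median log2 ratio of 2.56 in CD8 cells, and the 37 tested genes with a shorter one had 4.28. These medians rank the 6 genes with no resting UMI in a library at the top, H3c4 among the long genes and the others among the short. In such a library those genes passed the filter through the cycling cells alone. In NK cells the medians were 2.19 and 5.49, over 6 genes each, and in macrophages 2.58 and 4.70, over 11 and 21 genes. H2bc27, with 169 bases after the stem-loop, was a short gene with a weak ratio. The long genes H2bc9, with 1214 bases after it and a log2 ratio of 5.31, and H3c7, with 365 bases and 4.06, had strong ones. H1f3, with 4884 bases after the stem-loop, and H4c4, with 770, had ratios of 3.52 and 3.59, above the median of the long genes. H2bc4, H2bc21 and H2bc24 were long genes without a stem-loop match. This grouping was made after the ratios had been seen and is a description with no test, and poly(A) use itself was not measured.

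The mix of families also differed between cycling and resting cells. H1 genes held 63.1 to 67.5% of the histone UMIs in cycling CD8 cells and 71.1 to 73.3% in resting ones. H3 genes held 6.08 to 6.91% in cycling and 1.82 to 2.25% in resting CD8 cells, and H2A genes 11.6 to 12.3% and 6.36 to 6.62%, so both families took a smaller share at rest in every library. H4 genes held 10.4 to 12.5% and 11.5 to 14.1%, and the resting share was higher within each library, although in the mono-IL-10 library its counting interval, 12.1 to 13.6%, held the cycling value. In resting macrophages H2B genes held 13.3 to 15.6%, against 6.72 to 8.39% in cycling ones. The few resting tumor cells gave the most different mix, with 38.6 to 53.1% of UMIs from H2B genes and 31.3 to 40.4% from H1 genes, on 64, 134 and 57 histone UMIs.

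**Figure D3:**
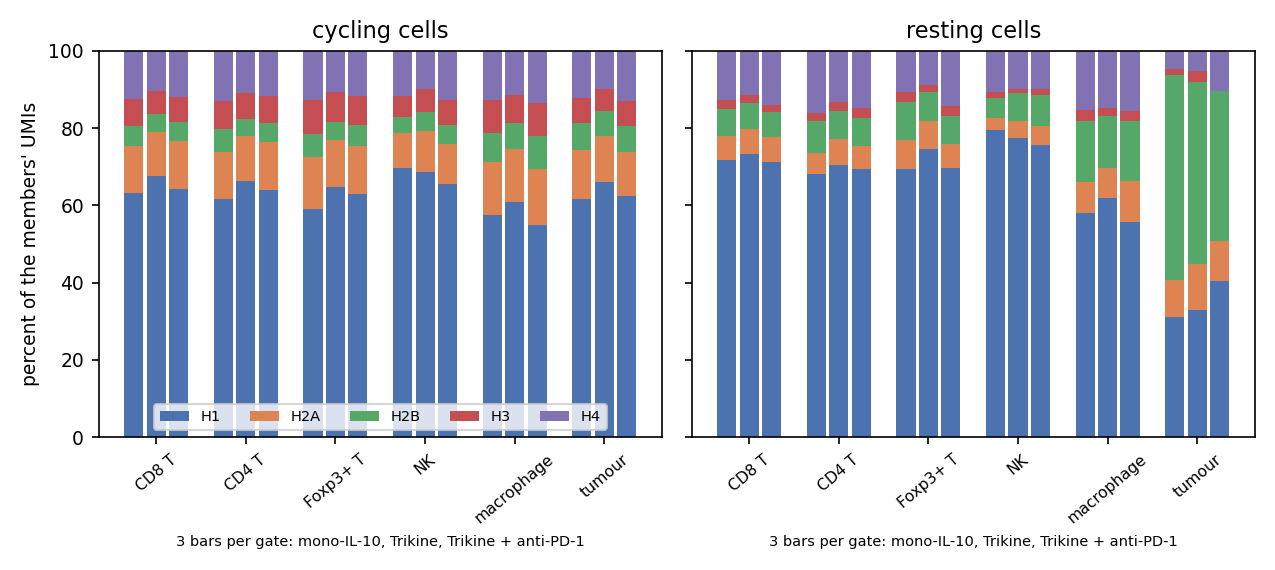
Share of the summed histone UMIs (percent) held by the H1, H2A, H2B, H3 and H4 genes, stacked for cycling and resting cells of each gate and library. H1 genes held 54.9 to 69.6% in all cycling sums, H3 genes were 0 to 2.99% in all resting sums, and the resting tumor cells stood apart with 38.6 to 53.1% from H2B genes.

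Within cycling cells the histone level followed the position in the cycle. Each cycling cell was placed by the share of S phase genes among its cell cycle UMIs, and all cycling cells were split into 3 bands at shares of 0.29 and 0.54. The middle band was highest and the S-weighted band lowest in all 18 pairs of gate and library. In CD8 cells the level from the G2/M-weighted to the middle to the S-weighted band was 5574, 7386 and 3468 CPM in the mono-IL-10 library. It was 4623, 5334 and 3109 CPM in the IL-10/2-Trikine library and 4591, 5664 and 3132 CPM in the combination. Over the 4 lymphocyte gates the S-weighted band was lower than the G2/M-weighted band by a mean log2 ratio of -0.61. A finer split of the lymphocytes also gave a peak away from both ends, though in the IL-10/2-Trikine library it lay on the G2/M side of the middle band. The level peaked at 7751 CPM in the mono-IL-10 library for shares of 0.3 to 0.4, at 5151 CPM in the IL-10/2-Trikine library for 0.2 to 0.3, and at 5615 CPM in the combination for 0.4 to 0.5. At shares of 0.8 to 0.9 it was 668, 504 and 439 CPM, near the resting level. Cells were placed by their list UMIs alone, so the S-weighted end is not a measured time in S phase.

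**Figure D4:**
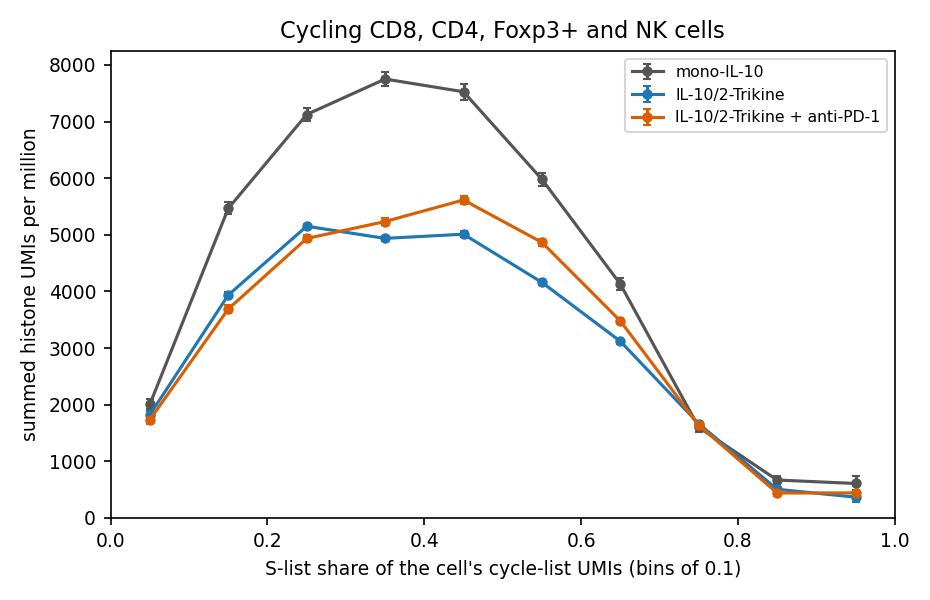
Summed histone level in CPM against the share of S phase genes among the cell cycle UMIs, in bins of 0.1, for cycling lymphocytes of each library with 95% counting intervals. The level was 2007, 1821 and 1735 CPM in the lowest bin, peaked between 0.2 and 0.5 and was 668, 504 and 439 CPM at 0.8 to 0.9.

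Single genes were set against all genes in the same bands. Of 59 genes with at least 50 UMIs in cycling lymphocytes, 43 were highest in the middle band on the mean of the 12 sums of lymphocyte gate and library, each with equal weight, against 24.1% of all genes. In every library, with the gates pooled, 24 of the 59 were so, against 4.45% of all genes. These means include NK sums of 4 cells in the mono-IL-10 library. H1f5 had 12-sum means of 1485, 2203 and 1206 CPM from the G2/M-weighted to the S-weighted band. H1f2 was instead highest in the G2/M-weighted band on the mean (298, 259 and 140 CPM), although in the pooled gates of the mono-IL-10 library the middle band was slightly higher, at 358 against 354 CPM. H2bc4 was lower from band to band in every library, at 57.8, 36.7 and 18.1 CPM in the mono-IL-10 library, 57.4, 22.7 and 13.0 CPM with IL-10/2-Trikine and 63.2, 23.7 and 14.8 CPM in the combination. H1f1 leaned to the S side, with 12-sum means of 76.3, 182 and 117 CPM, and its S-weighted band was above its G2/M-weighted band in all 3 libraries.

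The mix of histone genes was compared between the cycling cells of the gates. For each gene, its share of the histone UMIs in cycling cells of a gate was set against its share in cycling CD8 cells of the same library. In CD4, Foxp3-positive and NK cells no gene of 55, 53 and 51 compared was 2-fold higher or lower in every library. A share of the histone UMIs exists only for these genes, so the background is given on the CPM scale. On it 2.55%, 3.11% and 4.99% of all genes differed at least 2-fold from CD8 cells in every library, and 0, 0 and 1 of the histone genes. In tumor cells 3 of 52 genes took an at least 2-fold larger share in every library and 2 took a smaller one. On the CPM scale 13 of the 52 differed, 12 of them lower, which was below the 41.5% of all genes. The summed histone level of cycling tumor cells was itself below that of cycling CD8 cells, as given above. H2bc27 was at 89.8, 62.8 and 60.1 CPM in cycling tumor cells against 8.65, 6.59 and 6.72 CPM in cycling CD8 cells, a mean log2 difference in share of 4.06. It was seen in 99 of 191, 219 of 499 and 118 of 312 tumor gate cells. In resting tumor cells it was at 73.5, 126 and 109 CPM, on only 9, 39 and 13 UMIs from 13, 32 and 19 cells. These values were below the cycling level in the mono-IL-10 library and above it in the others. H2ac25 and H1f1 also took a larger share of the histone UMIs in tumor cells, by mean log2 differences in share of 1.93 and 1.22, while H2ac20 and H2bc15 took a smaller one, by -2.13 and -2.09. In CPM the differences of the first pair were less than 2-fold in at least 1 library, with H2ac25 at 19.7, 16.4 and 10.2 CPM in cycling tumor cells against 8.24, 5.48 and 6.89 CPM in cycling CD8 cells, and H1f1 at 249, 139 and 158 CPM against 140, 120 and 135 CPM. H2bc15 had only 2, 5 and 4 UMIs in cycling tumor cells, against 139, 253 and 90 in cycling CD8 cells. The minimum of 20 UMIs counted both gates together, so such a gene passed through the CD8 cells alone and its direction was fixed by the filter. H2ac1 looked specific to tumor cells in the mono-IL-10 library, but 48 of its 49 UMIs there came from 1 cell, so no difference is read from it.

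Macrophages differed from CD8 cells in the share of 3 of 55 genes, and on the CPM scale in 2 of 55, H3c4 (higher) and H4c9 (lower), against 31.1% of all genes. H3c4, H4c16 and H2bc4 took a larger share of the histone UMIs in cycling macrophages, by mean log2 differences of 1.87, 1.78 and 1.56. H2bc4 was at 70.3, 48.0 and 65.1 CPM in cycling and 34.3, 23.4 and 26.6 CPM in resting macrophages, so both states lay above the matching CD8 values. The empty droplets held H2bc4 at 34.3, 24.6 and 27.5 CPM, near or above the resting macrophage values. Those are levels in the mix of free RNA and not in cells. The part of free RNA in the resting macrophage values was not tested. The shares are of captured histone RNA, and macrophages held less of it in all.

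The comparison of the IL-10/2-Trikine with the mono-IL-10 library gave opposite directions for the whole gate and for cycling cells in CD8, CD4 and NK cells. Over all CD8 cells the summed histone level was 3244 against 2281 CPM, a log2 ratio of 0.51 (0.49 to 0.52), and the share of cycling CD8 cells was 41.6% against 15.7%. CD4 and NK cells as a whole were also higher, by log2 0.82 and 0.49, with 42.3% against 11.6% and 18% against 3.29% cycling. The other whole gates were not higher, with log2 ratios of -0.01 (-0.06 to 0.03) in Foxp3-positive cells, -0.23 in macrophages and -0.68 in tumor cells. In cycling cells alone the level was lower in all 6 gates. The log2 ratio was -0.32 (-0.34 to -0.31) in CD8 cells, -0.32 in CD4 cells, -0.49 in Foxp3-positive cells, -0.76 in NK cells, -0.49 in macrophages and -0.62 in tumor cells. All of these intervals lay below 0, and the median of all genes lay between -0.13 and 0.02. When cells with at least 1 Mki67 UMI were called cycling in place of the list share, the log2 ratio was -0.08 in CD8 cells and turned to 0.10 in CD4 and 0.05 in NK cells, so the direction in those 2 gates depends on how cycling cells are defined. The NK value rests on 18 mono-IL-10 cells.

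The same comparison was made within the bands of position in the cycle. Within bands of the S phase share the IL-10/2-Trikine library was lower in 18 of 18 pairs of gate and band, each with an interval below 0, on 10, 4 and 4 mono-IL-10 cells in the NK bands. In CD8 cells the log2 ratio was -0.27 in the G2/M-weighted band, -0.47 in the middle band and -0.16 in the S-weighted band. In the finer split of the lymphocytes, shares of 0.7 to 0.8 were not lower with IL-10/2-Trikine. There it stood at 1662 CPM (1612 to 1714) against 1598 CPM (1520 to 1679) with mono-IL-10, while every other bin was lower. Resting cells were lower too in all 6 gates, and in tumor cells the interval included 0. Resting cells of the neutrophil gate went the other way, at 385 against 302 CPM, a log2 ratio of 0.35 (0.013 to 0.69). Empty droplets were also higher, with 1560 CPM in the IL-10/2-Trikine library and 1357 CPM in the mono-IL-10 library. C1q genes, which mark macrophages, summed to 61.1, 13.2 and 53.3 CPM in the CD8 gate of the mono-IL-10, IL-10/2-Trikine and combination libraries, and their part in the result was not tested.

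Families and genes shared the direction to different degrees. In cycling CD8 cells the log2 ratio was -0.23 for H1, -0.39 for H2A, -0.57 for H2B, -0.51 for H3 and -0.60 for H4 genes. Of 58 genes with at least 20 UMIs in the pair, 28 were at least 1.5-fold lower in the IL-10/2-Trikine library, against 10.2% of all genes, and their median was -0.57 against -0.08. The same count was 24 of 57 in CD4 cells (15.6% of all genes), 24 of 43 in Foxp3-positive cells (11.7%) and 11 of 26 in NK cells (16.9%). It was 21 of 48 in macrophages (6.56%) and 22 of 37 in tumor cells (6.77%). The lowest ratios in CD8 cells were those of H4c12 at -1.35, H2bc22 at -1.28 and H2ac12 at -1.22. H4c12 had 5.60 CPM in the mono-IL-10 library and 2.20 CPM in the IL-10/2-Trikine library, and the other genes named were below 5 CPM in both. H4c4 carried the largest part of the H4 difference, from 610 to 387 CPM, a log2 ratio of -0.66 (-0.70 to -0.61). H1f5, the most abundant gene, had -0.16 (-0.18 to -0.13).

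One gene of the cycling CD8 cells went against the rest with an interval above 0. H4c9, an H4 gene, was at 28.0, 37.8 and 39.0 CPM in cycling CD8 cells of the mono-IL-10, IL-10/2-Trikine and combination libraries, a log2 ratio of 0.43 (0.24 to 0.63) between the first and second. The interval included 0 in the other gates, and the value was lower in Foxp3-positive cells, at 36.5 and 29.4 CPM, and in tumor cells, at 9.86 and 5.55 CPM. In resting CD8 cells H4c9 did not show this order, at 5.86, 5.85 and 4.99 CPM. Its resting level was higher with IL-10/2-Trikine than with mono-IL-10 in CD4 cells (7.97 against 5.34 CPM), Foxp3-positive cells (5.41 against 2.93 CPM), NK cells (10.4 against 6.92 CPM) and macrophages (7.11 against 4.06 CPM). The reference sums were also higher in the IL-10/2-Trikine and combination libraries, with 10.7, 42.4 and 37.9 CPM in resting cells of the neutrophil gate and 10.6, 24.6 and 14.2 CPM in empty droplets, and the part of free RNA in its difference was not tested. The other upper values, H4c14 at 0.09 and H2bc24 at -0.08, had intervals that included 0.

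The combination was compared with IL-10/2-Trikine alone in the same way, and the summed ratios in cycling cells were smaller than in the first comparison. The summed log2 ratio of the combination over the IL-10/2-Trikine library was 0.02 in CD8 cells, 0.14 in CD4 cells, -0.03 in Foxp3-positive cells, 0.04 in NK cells, 0.07 in macrophages and 0.07 in tumor cells. The CD8 value changed sign under 3 of the other settings tried, and the NK value, whose interval included 0, was -0.20 under Mki67. Within the bands the ratios were less even than in the sum, with 0.52 (0.42 to 0.62) in the S-weighted band of tumor cells, 0.34 in that of NK cells, and 0.32 in the middle but -0.15 in the G2/M-weighted band of CD4 cells. Of the 18 pairs of gate and band 6 were below 0. Over whole gates the combination was lower in CD8 cells by a log2 ratio of -0.53, with 20.2% of CD8 cells cycling against 41.6%. Both comparisons share the IL-10/2-Trikine library, so their values are set side by side and not correlated.

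In cycling CD8 cells 45 of 58 genes were above 0 in the combination, against 53.1% of all genes, with a median of 0.16 against 0.02. By family, H1 was lower and the core histones higher in cycling CD8 cells of the combination. The log2 ratio was -0.05 for H1, 0.10 for H2A, 0.15 for H2B, 0.13 for H3 and 0.22 for H4 genes. In CD8 cells 2 of 58 genes passed 1.5-fold in either direction, below the 10.9% of all genes. The count was 5 of 58 in CD4 cells (11.7% of all genes), 5 of 50 in Foxp3-positive cells (10.2%), 5 of 27 in NK cells (14%) and 8 of 38 in tumor cells (9.88%). Macrophages stood out with 13 of 49, all higher in the combination, against 9.27% of all genes. The upper ratios in CD8 cells were H4c3 at 0.54 (0.21 to 0.86), H2bc7 at 0.52 and H4c18 at 0.52, and the last 2 intervals included 0. The lower ratios were H4c14 at -0.55, H3c1 at -0.22 and H2ac7 at -0.21, each with an interval that included 0. H1f4 was at -0.19 (-0.23 to -0.16), and H4c4 at 0.23 (0.19 to 0.28).

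**Figure D5:**
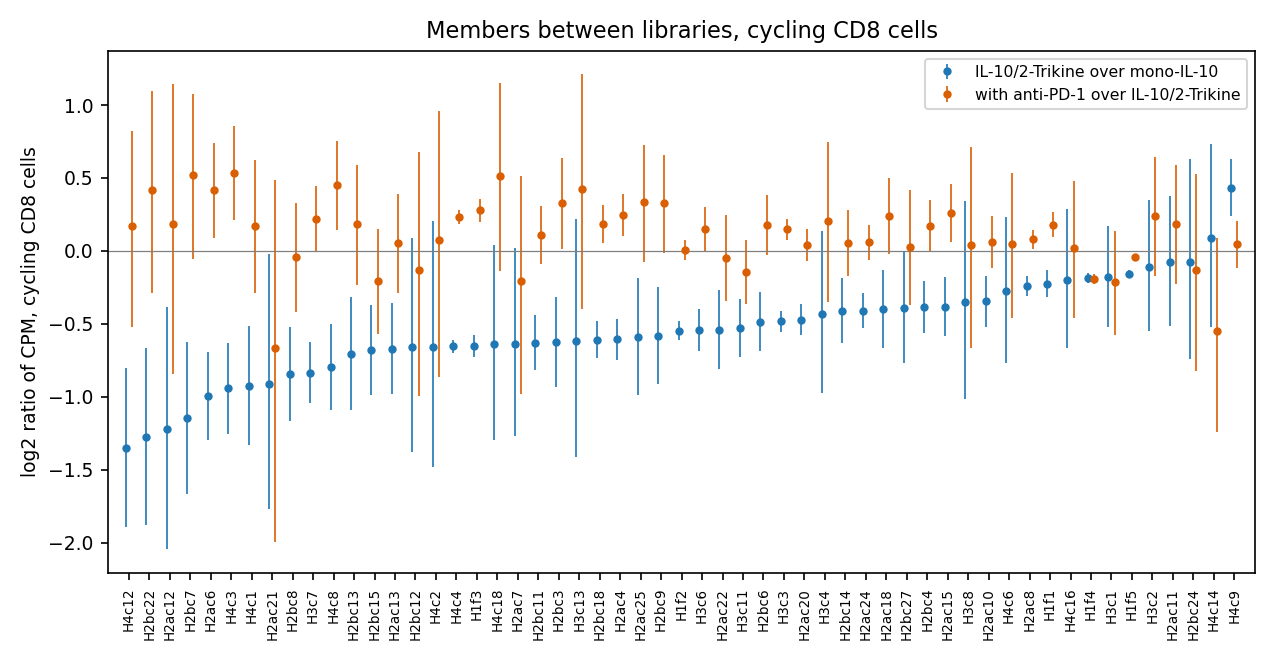
Log2 ratio of CPM in cycling CD8 T cells for IL-10/2-Trikine over mono-IL-10 and for the combination over IL-10/2-Trikine, for the genes with at least 50 UMIs in the pair, with 95% counting intervals. Most genes lay below 0 in the first comparison, with H4c9 at 0.43 as the upper extreme and H4c12 at -1.35 as the lower, and 45 of the 58 genes with at least 20 UMIs lay above 0 in the second.

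Histone genes outside the replication-dependent set were read in the same comparison. Of 11 replication-independent histone genes 10 could be read in CD8 cells, and 4 were at least 2-fold higher in cycling cells in every library, against 7.26% of all genes, with a median log2 ratio of 0.84 over the 10. These were H2az1 (log2 1.99), H2az2 (1.37), H2ax (3.33) and Cenpa (2.63), the centromeric H3 variant. H3f3a and H3f3b, which encode the H3.3 variant and replace histones throughout the cycle, had log2 ratios of 0.29 and 0.05, with H3f3b at 2235, 2158 and 2288 CPM in cycling and 2013, 2072 and 2372 CPM in resting cells. H1f0, the linker histone of resting and differentiated cells, had 0.55.

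The factors that process histone mRNA and load histones split in the same comparison. Of 20 processing genes 3 passed in CD8 cells, against the same 7.26% of all genes, with a median log2 ratio of 0.66 over the 20. These were Slbp (log2 1.62), which binds the stem-loop shown above, Eri1 (1.24), a nuclease that trims histone mRNA ends, and Nelfe (1.87), a subunit of the elongation factor NELF. Npat, which activates histone transcription, had 0.45. Of 22 histone chaperone genes 12 passed (7.26% of all genes), with a median log2 ratio of 1.18 over the 22, led by Asf1b (log2 5.07), at 159, 199 and 176 CPM against 5.61, 4.49 and 5.89 CPM, and Chaf1a (4.11), a subunit of the assembly factor CAF-1. Nasp, which holds free H3 and H4, had 1.90, and Hira and Daxx, which deposit H3.3, had 0.51 and -0.53. Between the first pair of libraries, IL-10/2-Trikine over mono-IL-10, these lists did not share the lower level of the replication-dependent genes in cycling CD8 cells. Their summed log2 ratios were 0.15 for the replication-independent histones, 0.04 for processing and 0.16 for chaperones. The S phase list stood at 0.13 and the G2/M list at 0.009. Outside CD8 cells the G2/M list was at 0.014 in CD4, -0.20 in Foxp3-positive and -0.23 in NK cells. It was at -0.09 in macrophages and -0.23 in tumor cells. Chaperones were at -0.09 in Foxp3-positive cells and higher with IL-10/2-Trikine in the other gates.

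Over the 36 sums of gate, state and library, the genes whose log2 level was most like that of the summed histones were Rrm1 (Pearson r 0.98), Ncaph2 (0.97), Plk1 (0.97), Ezh2 (0.97) and Mcm4 (0.97), among 6170 genes of at least 20 CPM in 18 of the sums. Rrm1, Plk1 and Mcm4 are on the lists that defined cycling cells. The 36 sums share libraries and depth, and the correlation is a description.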

How the data were processed

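The authors deposited unfiltered UMI counts per gene and barcode from Cell Ranger, empty droplets included. The file headers name version 8.0.0 and the methods another version, and the processing notes name mm10 while the methods name another build, so no gene coordinates were taken from the files. Every entry was a whole number. The study's own limits were applied, a minimum of 200 genes and a maximum of 20% mitochondrial UMIs per barcode, to the unfiltered matrices, and left more cells than the study states. Counts were summed per gate, state and library and scaled to CPM. Gates asked for at least 2 Cd3 UMIs and 1 of Cd8a or Cd8b1, Cd4 or Foxp3 without the other lineages, 2 of Ncr1 or Klrb1c without Cd3 for NK cells, 10 of C1q for macrophages, and 5 of neuroendocrine and epithelial genes without Ptprc for tumor cells. In the IL-10/2-Trikine library 2 barcodes met 2 gates. Log2 ratios carry exact conditional binomial 95% intervals, levels Poisson intervals and shares Clopper-Pearson intervals. All of them leave out the variation between cells and mice. The ratio intervals were tried on simulated counts that carry counting error only, so that trial does not cover this variation. A ratio was called past 2-fold in every library, or past 1.5-fold between libraries, among genes with at least 20 UMIs in the pair.

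Doublets were kept. Scrublet scores (scanpy 1.11.5) were computed per library, but the automatic threshold marked 13.8%, 14.4% and 0.03% of barcodes and had not worked in the combination, so the alternative removed the top 10% of scores. The genes and lists were chosen with earlier results of these data known. Named genes were the 12 with the largest mean CPM over the 36 sums, the 5 lowest and 5 highest cycling over resting ratios in CD8 cells, the 3 lowest and 3 highest ratios of each library comparison in cycling CD8 cells with at least 50 UMIs, and the 5 genes most correlated with the sum. Others, such as H2bc27 in tumor cells, were named after their values were seen. Alternatives were median-of-ratios scaling, at least 500 genes, doublet scores, cycling limits of 1% and 0.3%, Mki67, stricter gates, the sum without H1f5, minimums of 5 and 50 UMIs, other fold limits, 2 bands of S share for 3, and leaving out each library. Python 3.11.15, NumPy 2.4.6, SciPy 1.17.1, pandas 2.3.3 and matplotlib 3.10.9 were used.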

Additional observations from a re-analysis of the deposited data

Results flagged for a closer look

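H2ac4 in cycling NK cells went against the other gates between the libraries of IL-10/2-Trikine and of mono-IL-10. Its log2 ratio was 1.91 (0.0037 to 4.99) in NK cells, on 2 UMIs in the mono-IL-10 library, against -0.61 in CD8 cells, -0.48 in CD4 cells, -1.03 in Foxp3-positive cells and -1.16 in macrophages. With 1 library per group the difference between gates was not tested.

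H1f5 differed in direction between CD4 cells and CD8 cells, Foxp3-positive cells and macrophages when comparing the combination and IL-10/2-Trikine libraries, with a log2 ratio of 0.098 against -0.045, -0.059 and -0.16, and this difference was not tested either. In NK and tumor cells the ratio was 0.063 and 0.024, on the side of CD4 cells, with intervals that included 0.

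Droplets without a cell, which entered no gate, held replication-dependent histone RNA at 1357 CPM in the mono-IL-10 library, 1560 CPM in the IL-10/2-Trikine library and 1251 CPM in the combination, above the 302, 385 and 360 CPM of resting cells in the neutrophil gate.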

How the results depend on the processing

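Of 192 values recomputed under other settings, 113 stayed within the spread or count limit of the reported value, 74 moved and 5 changed direction. Among those that moved, 1 more had the other sign, the combination over IL-10/2-Trikine ratio in NK cells under Mki67, whose reported interval included 0. Cycling over resting ratios kept their direction everywhere and are given here on the log2 scale in the order CD8, CD4, Foxp3-positive, NK, macrophage and tumor. Without H1f5 they were 3.00, 2.91, 2.87, 2.45, 2.99 and 2.05. With Mki67 they were 3.26, 3.16, 3.07, 2.50, 2.90 and 2.81, and with a 1% limit 3.70, 3.69, 3.61, 3.20, 3.84 and 3.10. With 1 limit at 0.3% the first 5 were 3.40, 3.35, 3.27, 2.76 and 3.12. Median-of-ratios scaling moved CD8, CD4, Foxp3-positive and macrophage values to 3.63, 3.60, 3.55 and 3.22, stricter gates moved NK to 2.90, and removing high doublet scores moved CD8 to 3.54. Leaving out each library gave 3.49 to 3.52, 3.41 to 3.48, 3.35 to 3.44, 2.96 to 3.01, 3.35 to 3.45 and 2.43 to 2.64. Split at the median share, the S side stood at -0.33 against the G2/M side.

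IL-10/2-Trikine over mono-IL-10 ratios in CD8, CD4, Foxp3-positive and NK cells were -0.42, -0.52, -0.59 and -0.52 with a 1% limit and -0.24, -0.19, -0.39 and -0.65 with median-of-ratios scaling. Under Mki67 they were -0.079, 0.10, -0.33 and 0.052, the CD4 and NK values in the other direction. Without H1f5 the first 3 were -0.41, -0.42 and -0.60. At 0.3% the CD8, CD4 and NK values were -0.26, -0.23 and -0.62, and without high doublet scores CD8 and CD4 were -0.29 and -0.37. The macrophage value moved to -0.32 under Mki67. The tumor value moved to -0.56 with median-of-ratios scaling, -0.67 at 0.3%, -0.53 under Mki67 and -0.70 without H1f5. The combination over IL-10/2-Trikine ratio in CD8 cells was 0.078 at 1%, 0.052 without H1f5 and 0.037 with stricter gates, and turned to -0.026 at 0.3%, -0.081 with Mki67 and -0.0080 with median-of-ratios scaling. CD4 values were 0.23 at 1%, 0.085 at 0.3%, 0.016 with Mki67 and 0.16 without H1f5. Foxp3-positive values were -0.091 at 0.3% and -0.094 with Mki67, and NK was -0.20 with Mki67. Macrophage values were 0.13 at 1%, 0.027 at 0.3% and 0.16 without H1f5, and the tumor value was 0.14 with stricter gates. The cause was not tested.

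The number of genes at least 2-fold higher follows the minimum by construction. At 5 UMIs it was 39 in Foxp3-positive cells, 24 in NK cells, 47 in macrophages and 28 in tumor cells, and at 50 UMIs it was 13, 5 and 19 in the first 3. Between treatments no paired analysis was possible because each group was 1 library, while cycling over resting ratios were taken within each library. The number of cells limits the cycling NK gate of the mono-IL-10 library (18 cells) and the resting tumor cells (13, 32 and 19).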
